A study of Homo sapiens with 9 samples.

Results

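The regions described here are the peaks of RNA-binding proteins (RBPs) that lay in the body of a 3' UTR. A peak was counted as a member when its centre fell in a 3' UTR exon of the canonical coding transcript of a gene, on the same strand, more than 50 nt after the stop codon and more than 150 nt before the end of the transcript (GENCODE release 44 on GRCh38). By this rule 362454 of the 2478204 peaks in all 54 libraries were members, or 14.6%, and 16685 canonical transcripts had a 3' UTR long enough to hold one. The rule used position alone and no measured binding. The libraries came from antibody-barcode eCLIP (ABC), in which antibodies that each carry a DNA barcode pull down UV-crosslinked (254 nm) RBPs, the barcode is ligated to the bound RNA, and the reads of a shared library are then assigned to the RBPs. Pools of 10 RBPs (10plex) held DDX3, EIF3G, FAM120A, IGF2BP2, LIN28B, PRPF8, PUM2, RBFOX2, SF3B4 and ZC3H11A, with 3 pools from K562, an erythroleukemia line, and 2 pools from HEK293T, an embryonic kidney line. Singleplex ABC covered RBFOX2 in HEK293T cells (2 libraries) and SLBP in K562 cells (2 libraries). The labels name no genetic change and no treatment in any group.

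The 3' UTR follows the stop codon and carries most of the elements through which RBPs and microRNAs set how long an mRNA lasts, where it goes and how often it is translated. Pumilio proteins read a conserved UGUA-led element and recruit deadenylases, RBFOX proteins read GCAUG in introns and 3' UTRs, LIN28 proteins bind GGAG in let-7 precursors and in mRNAs through zinc knuckles, and IGF2BP proteins hold mRNAs through their KH domains. Core spliceosome proteins such as PRPF8 and SF3B4 act on introns instead, and initiation factors such as EIF3G and DDX3 act near the start of an mRNA.

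The sequences that carried the results are shown first, each as 30 bases of the GRCh38 reference read 5' to 3' on the strand of the RNA. They belong to members enriched in every replicate of their group and were picked by highest fold or, for RBFOX2 and PUM2, also by most reads with the element. Capitals mark the element searched for that RBP, and for FAM120A and SF3B4 no element was searched. A stretch was placed by the peak of the first replicate, so its element can lie beside the peak of another replicate or, in BCOR, STT3B and the SPOUT1 stretch at chr9:128821108-128821137, beside the peaks of all replicates. RBFOX2 members with GCATG in K562, HEK293T and singleplex libraries were:
BICD2 (chr9:92713672-92713701, minus strand): catgcccaccctGCATGcgctttgccctct
SPOUT1 (chr9:128821301-128821330, minus strand): cactggggacctGCATGgggaaggcgggag
SPOUT1 (chr9:128821340-128821369, minus strand): cactggggacctGCATGgggaaggcgtgag
SPOUT1 (chr9:128821108-128821137, minus strand): aagattgggtggGCATGccaagaggtgaca
AGFG2 (chr7:100566756-100566785, plus strand): ctcctggcctttGCATGttccatctcttct
ZBTB8A (chr1:32603682-32603711, plus strand): ttacatacatcaGCATGaatatccaacatt
KDM5A (chr12:282360-282389, minus strand): ttataaattattGCATGtcataccttgaat
FAM13B (chr5:137938839-137938868, minus strand): gcaatgactcatGCATGgttttcttaacta

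PUM2 members carried TGTANATA, the DNA letters of the Pumilio element, where N is any base. The first 3 are from K562 and the last 2 from HEK293T cells:
MBNL1 (chr3:152462438-152462467, plus strand): attagccatatTGTATATAtcgtcaagcaa
SAMSN1 (chr21:14485757-14485786, minus strand): atctgaataatTGTACATAaaattttgtat
MCL1 (chr1:150576664-150576693, minus strand): tttgtaaaaatTGTATATAtttttacagaa
BCOR (chrX:40051376-40051405, minus strand): ttgcttggaaaTGTACATAaaactaaaatt
GSK3A (chr19:42230458-42230487, minus strand): cctgtgtccctTGTAAATAgaaccagccca

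The members of highest fold for the other RBPs show how different the letters at their sites were. Capitals mark GGAG for LIN28B, GGAC, the core of the m6A consensus, for IGF2BP2, and GTAAG, a start of an intron, for PRPF8, whose PRPF4B member in K562 cells held none within 50 nt:
LIN28B, VPS39, K562 (chr15:42160681-42160710, minus strand): ccagagaggtgaaGGAGcacctggccttag
LIN28B, FER, HEK293T (chr5:109192763-109192792, plus strand): gttacccacagagGGAGcttactatgatga
IGF2BP2, HMGA1, K562 (chr6:34245839-34245868, plus strand): acaaactacctctGGACagttgtgttgttt
IGF2BP2, STT3B, HEK293T (chr3:31636970-31636999, plus strand): aacaactttgcctGGACttttttcatttta
FAM120A, POU2F1, K562 (chr1:167419542-167419571, plus strand): atctgaataacagagcagaaagacctaaaa
FAM120A, PTTG1IP, HEK293T (chr21:44850907-44850936, minus strand): aagatttcaccagaaaaccttcatataaaa
PRPF8, PRPF4B, K562 (chr6:4061698-4061727, plus strand): gcggtaattgcttctttaccttttatttct
PRPF8, CIRBP, HEK293T (chr19:1274429-1274458, plus strand): ggcttgtcccctGTAAGtgctttcgggaag
SF3B4, LUC7L3, K562 (chr17:50752147-50752176, plus strand): tggccttttacatgttgtctaattatcatt
SF3B4, CREBZF, HEK293T (chr11:85660602-85660631, minus strand): actaaattaatctctctctcttctctttga

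The libraries differed widely in depth. They held 938 to 339302 peaks each (median 23268), with 13666 to 4419529 reads in peaks, and the reads summed over the 10 RBPs of a pool ran from 2806738 to 10516938. A label field of the HEK293T pools names K562 while their titles name HEK293T, so markers of both lines were counted. Both of these titles also give the same replicate number, with differing original numbers in brackets. The HEK293T pools were taken as separate replicates. All 8 erythroid genes listed, GATA1, TAL1 and the globins HBG1, HBG2 and HBZ among them, had peaks in every K562 pool and none in the HEK293T pools. Of 5 markers of HEK293T cells, NEFL and NEFM were at 0 in K562 pools, ZIC2 had 1445 and 1586 reads in the HEK293T pools against 22 to 38 in K562, and PAX2 and LHX1 had at most 6 reads anywhere. A peak was called enriched at P below 0.001 and more than 8-fold over its control. For 10plex libraries the control was the complement control (CC), made by adding up the reads of the 9 remaining barcodes, so the 10 RBPs of a pool are not independent of each other. For singleplex libraries it was the external background.

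FAM120A, a cytoplasmic RBP known as a scaffold in Src kinase signalling, was the RBP whose enriched peaks lay in 3' UTR bodies. In the 3 K562 pools 91.5% (7559 of 8258 enriched peaks), 90.4% (10981 of 12144) and 90.01% (6675 of 7416) were members, with exact 95% binomial intervals within 89.3 to 92.1%. In the 2 HEK293T pools the share was 91.3% (15432 of 16912) and 90.8% (16142 of 17779). All 5 libraries sat within 2 percentage points of each other and no library of another RBP came near them, the highest being IGF2BP2 of the third K562 pool at 55.2%. The mean was 90.7% ± 0.79 (SD, n = 3) in K562 cells against 13.4% for the mean of the other 9 RBPs (exact permutation of RBP labels within pools, two-sided, p = 0.001, the smallest that 1000 choices allow; adjusted p = 0.01 over 10 RBPs). In HEK293T cells it was 91.0% ± 0.32 (SD, n = 2) against 13.8% (exact permutation p = 0.01, the smallest of 100 choices; adjusted p = 0.1). The size of this share rested on the control: over the external background it was 71.6% ± 2.72 (SD, n = 3) in K562 and 42.3% ± 5.37 (SD, n = 2) in HEK293T cells. Nothing in the labels says that replicates were separate cultures, so these p-values measure the spread between the deposited libraries only, and binomial intervals cover counting error only.

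The other RBPs fell into an intermediate and a low group. IGF2BP2, which stabilises its target mRNAs, had 39.1, 37.8 and 55.2% of its enriched peaks in the body in K562 cells (44.04% ± 9.68, SD, n = 3; exact permutation p = 0.086) and 45.5 and 39.1% in HEK293T cells. PUM2, a Pumilio protein, had 25.5, 40.1 and 27.6% in K562 and 22.8 and 33.1% in HEK293T cells. ZC3H11A, a zinc finger protein linked to mRNA export, had 22.8, 26.8 and 18.8%, and 23.0 and 24.8%. LIN28B had 14.4, 13.3 and 18.2%, and 21.1 and 22.1%. The ranges of IGF2BP2 and PUM2 overlapped in K562 but not in HEK293T cells, and those of PUM2 and ZC3H11A overlapped in both lines. The ranges of ZC3H11A and LIN28B did not overlap in either line, at 18.8% against 18.2% and 23.0% against 22.1% where they came nearest, and pairs of RBPs were not tested. The remaining 5 RBPs, EIF3G, RBFOX2, DDX3, SF3B4 and PRPF8, stayed between 0.17 and 3.6% in every pool. Apart from FAM120A in K562 cells, no RBP passed the test after adjustment in either line.

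**Figure D1:**
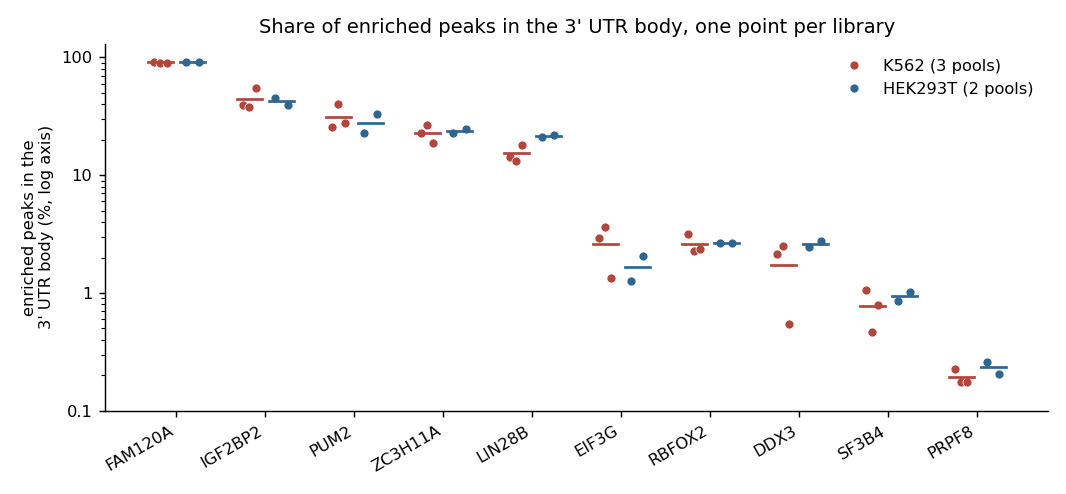
Share of enriched peaks (percent, log axis) that lay in a 3' UTR body, one point for each library of the 10 RBPs in K562 (3 pools) and HEK293T cells (2 pools). The 5 FAM120A libraries sit between 90.01 and 91.5%, and PRPF8 libraries sit near 0.2%.

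Where the remaining enriched peaks lay separated the same RBPs. LIN28B peaks were mostly coding (mean 62.2% in K562 cells), and ZC3H11A, DDX3 and IGF2BP2 had 39.1, 38.3 and 37.6% in coding exons. EIF3G, a subunit of initiation factor eIF3, and DDX3, an RNA helicase of translation initiation, had 50.1 and 47.5% in 5' UTRs. RBFOX2, SF3B4 and PRPF8 had 93.6, 91.3 and 84.4% outside the exons of canonical mRNAs. When only peaks in mRNA exons were counted, members made up 41.7% of RBFOX2 peaks in K562 and 71.2% in HEK293T cells, against 14.0 and 9.72% for SF3B4 and 1.28 and 0.83% for PRPF8. RBFOX2 is a splicing regulator, and the difference of these shares from those of both spliceosome proteins was not tested.

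**Figure D2:**
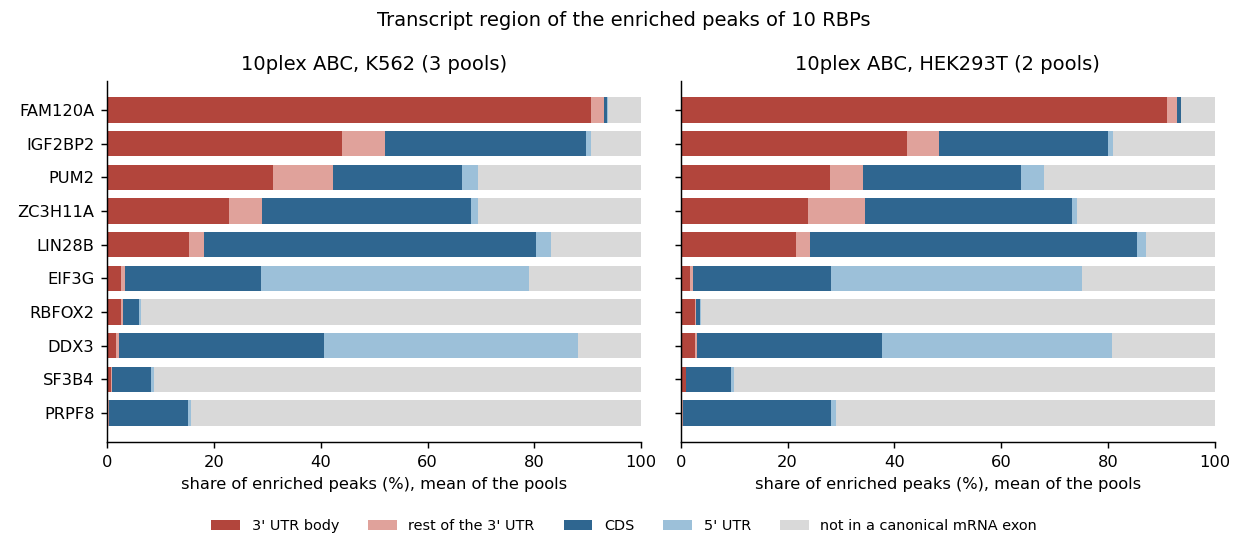
Mean share (percent of enriched peaks) in 5' UTRs, coding exons, 3' UTR bodies, other 3' UTR sequence and outside canonical mRNA exons, for the 10 RBPs in K562 and HEK293T cells. The 3' UTR body fills 90.7 and 91.0% of the FAM120A bars and 0.19 and 0.23% of the PRPF8 bars.

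Members of FAM120A were also called more often than its peaks as a whole. In K562 cells 25215 of 74041 members were enriched (34.1%, against 18.5% of all its peaks tested), and in HEK293T cells 31574 of 75870 (41.6%, against 19.1%). Enriched members had a median of 21, 37 and 22 reads and a median log2 fold over the CC of 4.21, 4.0 and 3.8 in the K562 pools. Of the enriched members of the first K562 pool, 3022 of 7559 were enriched at a touching position in both other pools (39.98%, against 39.0% of all its enriched peaks). In HEK293T cells 9087 of 15432 were (58.9%, against 57.6%). Over all enriched FAM120A peaks, members included, 3221 of 8258 and 9735 of 16912 recurred. Members made up most of these peaks, so the shares could differ little and do not compare members with other peaks. At the site in POU2F1, which encodes a POU-domain transcription factor, the log2 fold was 6.46, 6.91 and 6.04 with 38, 70 and 44 reads, 3747 nt after the stop codon, and no other RBP of the pool had a peak there. At the site in PTTG1IP, whose product binds securin, the log2 fold was 6.04 and 9.54 with 154 and 243 reads in HEK293T cells. Folds this high are imprecise because few control reads remained.

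FAM120A members covered many genes and clustered along long 3' UTRs. Of 7424 genes with a tested member of any RBP in K562 cells, 1446 had an enriched FAM120A member in every pool (19.5%), and in HEK293T cells 2975 of 8957 did (33.2%). The share rose with 3' UTR length, from 3.39% in the first of 4 equal groups of K562 genes by length (at most 939 nt) through 12.9 and 25.1% to 36.6% in the last. In HEK293T cells the 4 groups had 5.30, 24.8, 43.8 and 59.0%. No test was made across genes. Genes with such a member had a median of 3.67 enriched members in K562 and 3.5 in HEK293T cells, and 146 and 368 genes had 10 or more.

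DDX6, which encodes an RNA helicase of P bodies, held the most FAM120A members in K562 cells. It had 41, 50 and 41 enriched members with 44828, 118053 and 32816 reads (44 ± 5.20 members, SD, n = 3), which took 11.8% ± 1.17 of all reads in enriched FAM120A members and covered 24.0% of its 4342-nt 3' UTR. In HEK293T cells DDX6 had 29 and 32 members, which took 4.38% of these reads and covered 17.0%. SCD, stearoyl-CoA desaturase, was next in K562 cells with 36, 36 and 47 members over 33.6% of its 3893-nt 3' UTR, and had 22 and 21 in HEK293T cells. IGF2BP1, an RBP and let-7 target, had 19, 37 and 27 members in K562 and 24 and 30 in HEK293T cells. In HEK293T cells the most members were in FZD3, a Wnt receptor, with 28 and 40 against 0 in each K562 pool, then in FAM199X with 34 and 29 (12, 19 and 14 in K562) and in RO60, a binder of Y RNAs, with 33 and 29 (19, 29 and 25 in K562). These are bulk libraries, so more binding per mRNA and more mRNA cannot be told apart in the reads of a gene, nor can fewer cells and less RNA per cell.

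**Figure D3:**
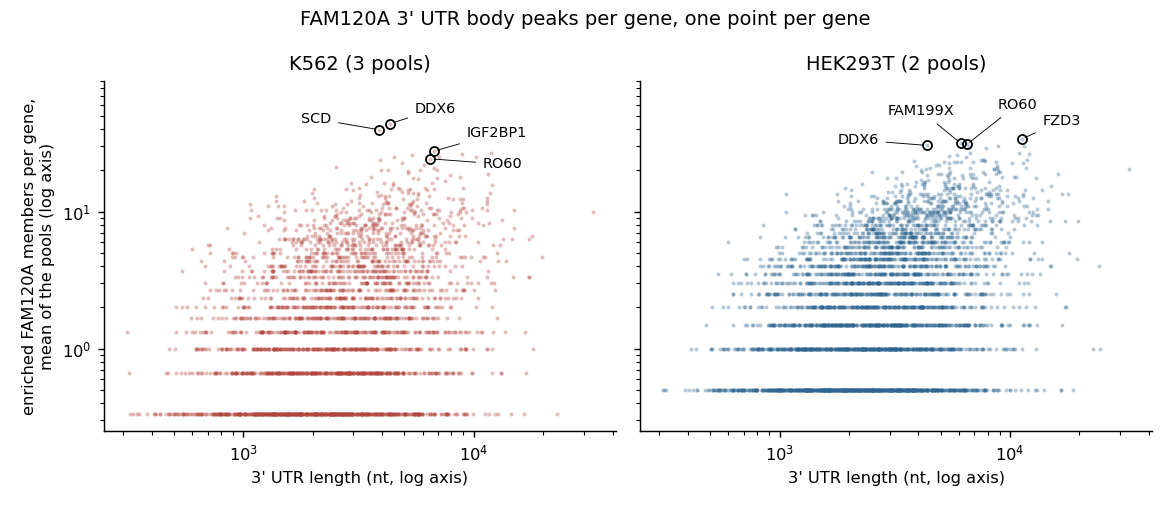
Mean number of enriched FAM120A members per gene against the length of its 3' UTR (nt), both on log axes. The genes shown had an enriched member in any replicate of K562 (2985 genes) or HEK293T cells (4157 genes). DDX6 and SCD stand high for their length, with 44 and 39.7 members in K562 cells in 3' UTRs of 4342 and 3893 nt.

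Lists of mRNAs by function were counted for FAM120A beside the shares of all tested genes, 19.5% in K562 and 33.2% in HEK293T cells. Of the mRNAs of P bodies and mRNA decay, 12 of 28 had an enriched member in every K562 pool (42.9%) and 20 of 30 in both HEK293T pools (66.7%). Besides DDX6 they included AGO2, an Argonaute protein, with 25, 33 and 23 members in K562 and 28 and 20 in HEK293T cells, the decapping enzyme DCP2 with 10, 15 and 5, and 8 and 8, and the deadenylase CNOT6L with 6, 16 and 5, and 15 and 15. Of mRNAs of the let-7 and IGF2BP axis, 8 of 13 (61.5%) and 11 of 16 (68.8%) did. Among these, NRAS, a small GTPase, had 12, 16 and 7 members in K562 and 13 and 10 in HEK293T cells, and ACTB, beta-actin, had 5, 7 and 4, and 6 and 6, in a 3' UTR of 600 nt. Of mRNAs of the profiled RBPs themselves, 4 of 8 (50.0%) and 5 of 9 (55.6%) did, and the mRNA of FAM120A itself had 4, 5 and 1 members in K562 and 4 and 6 in HEK293T cells.

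The other lists stood nearer to those shares. Of cell cycle mRNAs 7 of 27 (25.9%) had a FAM120A member in every K562 pool and 13 of 25 (52.0%) in both HEK293T pools. The kinase CDK6 had 22, 32 and 21 members in K562 and 25 and 20 in HEK293T cells, and CDK2 had 8, 11 and 9, and 9 and 6, in a 3' UTR of 1164 nt. Of iron mRNAs 2 of 8 did in both lines, namely NCOA4, the ferritinophagy receptor, with 7, 11 and 8, and 8 and 6, and TFRC, the transferrin receptor, with 9, 2 and 10, and 12 and 2. AU-rich element mRNAs had 4 of 14 (28.6%) and 3 of 10 (30.0%), and Pumilio targets 1 of 12 (8.33%) and 7 of 13 (53.8%). Every pool meant 3 pools in K562 but 2 in HEK293T cells, so these shares do not compare the lines. In any pool, 7 of 12 and 10 of 13 Pumilio targets had a FAM120A member. The lists differ in 3' UTR length, and their shares were not adjusted for it.

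No short element stood out at FAM120A members as it did for RBFOX2 or PUM2. The 5 letters that differed most from windows 200 nt away in the same 3' UTRs were TTCCC in K562 cells (26.0% of members against 18.7%) and AAATT in HEK293T cells (48.2% against 39.8%), with TTCCC next in HEK293T cells (23.9% against 16.5%). The sequence around members was richer in A than that of other RBPs in K562 cells (29.4% against 25.0%, exact permutation, adjusted p = 0.03 over 10 RBPs) and poorer in C (18.4% against 23.1%, adjusted p = 0.03). Neither passed the permutation test when adjusted over all 10 features added after the data were seen (p = 0.0545). In HEK293T cells A made up 30.4 and 30.9% around members and 29.3 and 29.4% in windows 200 nt away. C made up 17.9 and 17.7% around them, against 18.1 and 18.1%. The 3' UTRs of enriched FAM120A members had a median length of 3529 nt in K562 and 3808 nt in HEK293T cells. These values count a 3' UTR once per member, so long 3' UTRs weigh more. Counted once per gene, genes with a tested member of any RBP had 1821.5 and 1894 nt, and all canonical transcripts 1026 nt. Counted once per member, singleplex RBFOX2 in HEK293T cells had 3785.5 nt, so long 3' UTRs were not particular to FAM120A.

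RBFOX2 members were few and held its element. In K562 cells 285 of 8417 members were enriched (3.39%, against 11.2% of all its peaks), and in HEK293T cells 399 of 19024 (2.1%, against 5.79%), so peaks in 3' UTR bodies were called less often than RBFOX2 peaks as a whole. GCATG lay within 50 nt of 66.3, 69.9 and 73.4% of enriched members in K562 cells and of 73.7 and 62.6% in HEK293T cells. The means of 69.9% ± 3.58 (SD, n = 3) and 68.2% ± 7.82 (SD, n = 2) were above the 10.5 and 9.77% in members of the other 9 RBPs (exact permutation, adjusted over 5 elements, p = 0.00167 and p = 0.0167). In windows 200 nt away the element was in 20.8 and 17.0%. Both lines and all 5 pools lay far above either comparison. Over the external background the share in K562 cells was 37.7%.

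Single RBFOX2 sites recurred between lines and between methods. In BICD2, an adaptor of the dynein motor, the log2 fold over the CC was 4.90, 5.19 and 5.85 in K562 cells with 33, 68 and 47 reads and 4.28 and 4.01 in HEK293T cells with 205 and 338 reads. In singleplex libraries it was 7.5 and 7.43 over the external background with 632 and 336 reads, which is another control and not to be set against the 10plex folds. SPOUT1, a methyltransferase gene, held 5, 6 and 7 enriched members in K562 and 7 and 6 in HEK293T cells, the most of any gene in K562. Its 3 sites shown above had log2 folds of 4.30, 4.61 and 4.91, of 4.94, 4.59 and 5.28, and of 3.63, 4.02 and 4.10, and the first and second are near-identical stretches, so reads could be shared between them. FAM13B followed with 5, 6 and 5 members and BICD2 with 6, 6 and 3. In HEK293T cells ZFP41 had 6 and 8 members. The ZBTB8A site had 4.95 and 4.39 with 174 and 352 reads, and the AGFG2 site 5.59 and 5.22 with 17 and 13 reads.

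Of enriched RBFOX2 members of the first K562 pool 26 of 83 were enriched in every pool (31.3%, against 28.4% of all its enriched peaks). In HEK293T cells 77 of 209 were (36.8%, against 43.0%). Singleplex RBFOX2 had 1754 of 27525 members enriched over the external background (6.37%, against 10.0% of all its peaks), and 687 of the 898 in its first library were enriched in the second as well (76.5%, against 67.9%). In the 10plex libraries of the same line 1223 of 22210 members passed the same external limits (5.51%, against 9.2%). Members made up 3.07 and 3.56% of enriched singleplex peaks (3.32% ± 0.35, SD, n = 2) and 3.57 and 3.73% of 10plex peaks (3.65% ± 0.11, SD, n = 2), a difference of -0.338 percentage points (exact permutation, two-sided, p = 0.33, the smallest that 2 against 2 libraries allow). GCATG lay within 50 nt of 66.0 and 63.8% of singleplex members and of 18.5% of windows 200 nt away. NAT8L, the N-acetylaspartate synthase gene, had 18 and 18 singleplex members and ZNF207 had 20 and 13. The histone demethylase gene KDM5A held the member of highest fold, at log2 8.18 and 8.56 with 508 and 366 reads, and the FAM13B site had 6.93 and 7.01 with 640 and 251 reads.

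**Figure D4:**
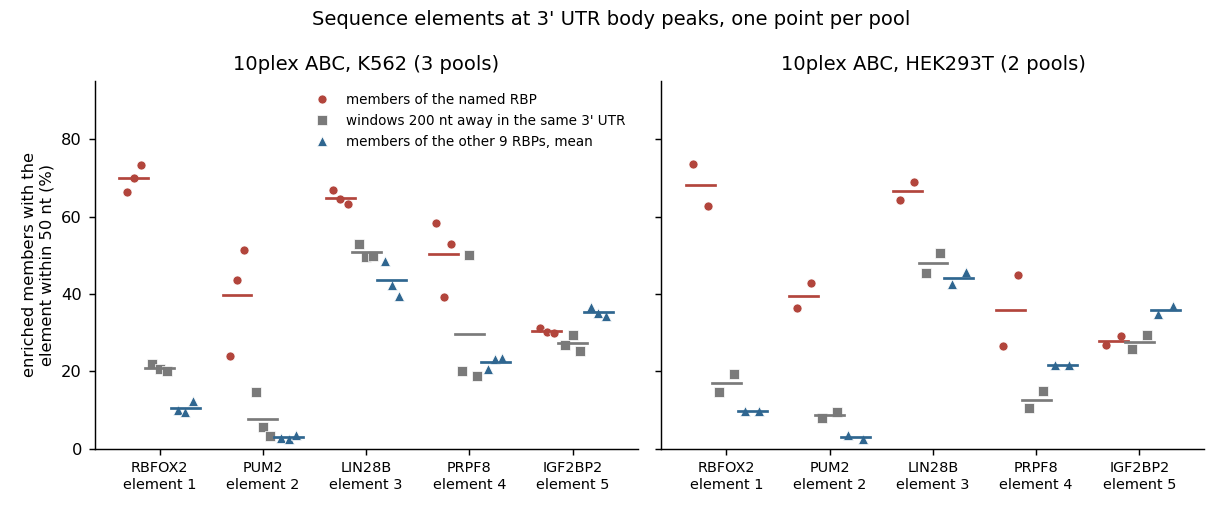
Share of enriched members (percent) with a short element within 50 nt, for element 1 (GCATG, RBFOX2), 2 (TGTANATA, PUM2), 3 (GGAG, LIN28B), 4 (GTAAG or GTGAG, PRPF8) and 5 (GGAC, IGF2BP2). Red points are libraries of that RBP, grey squares windows 200 nt away in the same 3' UTRs and blue triangles the mean of the other 9 RBPs. Elements 1 and 2 lie highest above both comparisons, and element 5 lies at 30.4% in K562 cells against 27.2% in windows 200 nt away.

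PUM2 had the fewest peaks of the 10 RBPs, and its members often held its element. In K562 cells 325 of 768 members were enriched (42.3%, against 31.1% of all its peaks), and in HEK293T cells 249 of 845 (29.5%, against 22.3%). Enriched members had a median of 3, 3 and 4 reads in K562 and 3 and 3 in HEK293T cells, which is little to place a site with. TGTANATA lay within 50 nt of 24.0, 43.6 and 51.5% of them in K562 cells (39.7% ± 14.1, SD, n = 3) and 36.3 and 42.9% in HEK293T cells (39.6% ± 4.65, SD, n = 2). Members of the other 9 RBPs had it in 2.91 and 2.99% (exact permutation, adjusted over 5 elements, p = 0.00167 and p = 0.0167), and windows 200 nt away in 7.77 and 8.74%. Within the peak alone the shares were 25.1 and 21.2%. PUM2 members had 29.6% A against 25.0% in other members in K562 cells (exact permutation, adjusted p = 0.03 over 10 RBPs and p = 0.05 over all added features).

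Few PUM2 members recurred: 6 of the 50 in the first K562 pool were enriched in every pool (12.0%, against 9.69% of all its enriched peaks), and 15 of 102 in HEK293T cells (14.7%, against 12.5%). Leaving out adapter-like sites, 4 of 6 and 7 of 14 such members held the element. MBNL1, a splicing regulator, carried 1 of them 112 nt after the stop codon, with log2 folds of 3.8, 3.22 and 3.67 and 14, 19 and 13 reads. FAM120A had 47, 86 and 29 reads at that MBNL1 site, and all 9 other RBPs had a peak there. SAMSN1 had folds of 4.41, 4.85 and 3.77 with 10, 18 and 6 reads, and MCL1, an anti-apoptotic gene with AU-rich elements, 3.62, 3.44 and 3.88 with 3, 5 and 4 reads. In HEK293T cells the MYC site had 3.92 and 3.86 with 4 and 14 reads, the site of the corepressor BCOR 5.28 and 3.70 with 11 and 7 reads and an element 50 nt from the peak centre, and the kinase gene GSK3A 3.45 and 3.79 with 3 and 8 reads. Other RBPs had peaks at these sites as well. FAM120A had 12, 33 and 24 reads at SAMSN1 and 24, 0 and 0 at MCL1. IGF2BP2 had 21 and 29 reads at MYC, 8 and 25 at BCOR and 14 and 20 at GSK3A. The sites under 10 reads were taken after the data were seen. PUM2 members lay in its own mRNA 0, 4 and 1 times in K562 cells. Of 12 listed Pumilio targets 0 had a PUM2 member in every K562 pool (0.0943% of all tested genes had one).

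LIN28B members were called less often than its peaks as a whole in K562 and more often in HEK293T cells. In K562 cells 2427 of 7950 were enriched (30.5%, against 37.5%), and in HEK293T cells 2421 of 7514 (32.2%, against 27.3%). GGAG lay within 50 nt of 66.8, 64.7 and 63.2% of enriched members in K562 (64.9% ± 1.80, SD, n = 3) and 64.2 and 68.8% in HEK293T cells (66.5% ± 3.31, SD, n = 2). The other 9 RBPs had it in 43.5 and 44.1% (exact permutation, adjusted over 5 elements, p = 0.005 and p = 0.0167), and windows 200 nt away in 50.8 and 48.0%, so this short element was common everywhere and the excess was smaller than for GCATG. Within the peak alone the shares were 37.7 and 39.4%. The 5 letters that differed most from those windows were GGAGG in K562 cells (32.0% against 20.4%) and GGAGA in HEK293T cells (28.7% against 15.96%).

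The VPS39 member of LIN28B lay 62 nt after the stop codon and had log2 folds of 8.61, 6.92 and 6.64 with 24, 49 and 28 reads. VPS39 encodes a subunit of a complex that tethers membranes to lysosomes. In HEK293T cells the tyrosine kinase gene FER had 8.71 and 7.89 with 19 and 17 reads, 5211 nt after its stop codon. Of the first pool's enriched members 260 of 690 recurred in every K562 pool (37.7%, against 33.0% of all enriched LIN28B peaks) and 559 of 1423 in HEK293T cells (39.3%, against 32.7%). UCK2, a uridine-cytidine kinase gene, held the most, with 3, 5 and 4 members in K562 and 8 and 9 in HEK293T cells, followed by HIPK2, a kinase gene, with 3, 4 and 4, and 5 and 5. In K562 cells the taurine transporter SLC6A6 had 2, 5 and 4, and in HEK293T cells the transcription factor FOXK1 had 7 and 2. Of listed cell cycle mRNAs CCNA2 and E2F2 had a LIN28B member in every K562 pool (2 of 27, against 3.39% of all tested genes), and CCNA2, CCND2, E2F2 and E2F3 in both HEK293T pools (4 of 25, against 5.69%). HMGA2, a let-7 target, had 4 and 2 LIN28B members and IGF1R 3 and 3 in HEK293T cells. They were the 2 of 16 mRNAs of the let-7 and IGF2BP axis with one in both pools (12.5%, against 5.69% of all tested genes). In K562 cells 0 of 13 had one in every pool (against 3.39%). Of listed Pumilio targets 3 of 13 had one in both HEK293T pools and 1 of 12 in every K562 pool.

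IGF2BP2 had many peaks in 3' UTR bodies, of which a small part was enriched. In K562 cells 4233 of 30321 members were (14.0%, against 12.1% of all its peaks), and in HEK293T cells 2694 of 33387 (8.07%, against 4.96%). Recurrence was low: 157 of 1134 members of the first K562 pool were enriched in every pool (13.8%, against 11.1%) and 172 of 1795 in HEK293T cells (9.58%, against 7.95%). HMGA1, a chromatin protein gene, stood out with 14, 16 and 15 enriched members in K562 cells (15.0 ± 1.0, SD, n = 3) and 8 and 7 in HEK293T cells, within a 3' UTR of 1347 nt. At the HMGA1 site shown the log2 fold was 5.46, 5.92 and 5.57 with 127, 1014 and 1023 reads, and 7 other RBPs had a peak at that position. The marked GGAC lay inside the peak of the first pool only, and the peaks of the other pools began downstream of it. FGFRL1, an FGF receptor-like gene, had 8, 8 and 9 members in K562 and 9 and 5 in HEK293T cells. SH2B3, an adaptor gene of cytokine signalling, had 6, 5 and 8 in K562, and PLAGL2, a zinc finger gene, 7 and 3 in HEK293T cells. Of the let-7 and IGF2BP axis HMGA1 alone had an IGF2BP2 member in every K562 pool (1 of 13, against 3.42% of all tested genes), and HMGA1, HMGA2 (1 and 1) and IGF1R (2 and 2) did in HEK293T cells (3 of 16, against 3.44%).

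The GGAC core was not enriched at IGF2BP2 members. It lay within 50 nt of 30.4% ± 0.65 (SD, n = 3) of them in K562 and 27.9% ± 1.66 (SD, n = 2) in HEK293T cells, with 27.2 and 27.6% in windows 200 nt away. Members of the other 9 RBPs had it in 35.4 and 35.8% (exact permutation, p = 0.412 and p = 0.3). At STT3B, an oligosaccharyltransferase gene, the log2 fold was 6.55 and 4.83 with 11 and 12 reads, and the GGAC lay 34 nt from the peak centre. The sequence around IGF2BP2 members held less G in K562 cells, 18.04% ± 0.87 (SD, n = 3) against 23.6% in other members (exact permutation, adjusted p = 0.01 over 10 RBPs and p = 0.0333 over all features added after the data were seen). The leading 5 letters were ACACA (21.7% against 13.1% in windows 200 nt away) in K562 and TTTCA (37.8% against 29.3%) in HEK293T cells, with CACAT high in both (22.3% against 14.8%, and 22.5% against 15.9%).

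ZC3H11A had 1036 of 4382 members enriched in K562 (23.6%, against 22.5% of all its peaks) and 875 of 5988 in HEK293T cells (14.6%, against 11.9%). The most lay in SLC25A37, which encodes mitoferrin, the mitochondrial iron importer, with 6, 8 and 6 members in K562 cells. At its highest member the log2 fold was 3.54, 3.78 and 4.16 with 15, 42 and 18 reads, 201 nt after the stop codon, and SLC25A37 was the one listed iron mRNA of 8 with a ZC3H11A member in every K562 pool (0.404% of all tested genes had one). VEGFA, a growth factor mRNA with AU-rich elements, had 4, 5 and 2. DGCR8, the partner of Drosha, had 6, 6 and 4 members, and GOLGA8A 3, 5 and 4, which is uncertain because GOLGA8A has near-identical paralogs. In HEK293T cells GIGYF1 had 2 and 5, the collagen gene COL27A1 4 and 3 and GOLGA8B 4 and 3. The chromatin gene MTA1 held the highest fold, log2 5.03 and 3.24 with 14 and 14 reads.

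PRPF8 and SF3B4 had few enriched members, and more of these lay near annotated splice sites than members of other RBPs did in K562 cells. PRPF8, the core protein of the U5 snRNP, had 69 of 2948 members enriched in K562 (2.34%, against 22.5% of all its peaks) and 74 of 5698 in HEK293T cells (1.30%, against 17.2%). SF3B4, a subunit of the U2 snRNP, had 127 of 2135 (5.95%, against 30.8%) and 129 of 2027 (6.36%, against 24.2%). The splice sites were those of all annotated transcripts on the same strand. They include sites at the edges of the canonical transcript's own 3' UTR exons and sites of other genes. Of PRPF8 members 12 of 24, 15 of 28 and 14 of 17 lay within 50 nt of a 5' splice site in the K562 pools (62.0% ± 17.7, SD, n = 3), against a mean of 1.24% in the other 9 RBPs (exact permutation, adjusted p = 0.01 over 10 RBPs and p = 0.0333 over all added features). In HEK293T cells it was 15 of 45 and 12 of 29 (37.4% ± 5.69, SD, n = 2, against 0.83%; exact permutation p = 0.01, the smallest possible, adjusted p = 0.1).

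SF3B4 members showed the same at the other end of the intron. Of them 16 of 42, 23 of 44 and 24 of 41 lay within 50 nt of a 3' splice site in K562 cells (49.6% ± 10.5, SD, n = 3, against 1.55%; exact permutation, adjusted p = 0.01 over 10 RBPs and p = 0.0333 over all added features). In HEK293T cells 25 of 74 and 11 of 55 did (26.9% ± 9.75, SD, n = 2). Members inside an intron of another transcript made up 65.1% for PRPF8 and 63.7% for SF3B4 in K562 cells, against 26.8 and 26.9% in the other 9 RBPs (exact permutation, adjusted p = 0.025 for both over 10 RBPs, and p = 0.05 and p = 0.0545 over all added features, where neither is below 0.05), and 47.5 and 59.0% in HEK293T cells. The splice site features were chosen after the data were seen. As background, the U5 snRNP holds the exon next to the 5' splice site and the U2 snRNP sits at the branch point just before the 3' splice site.

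**Figure D5:**
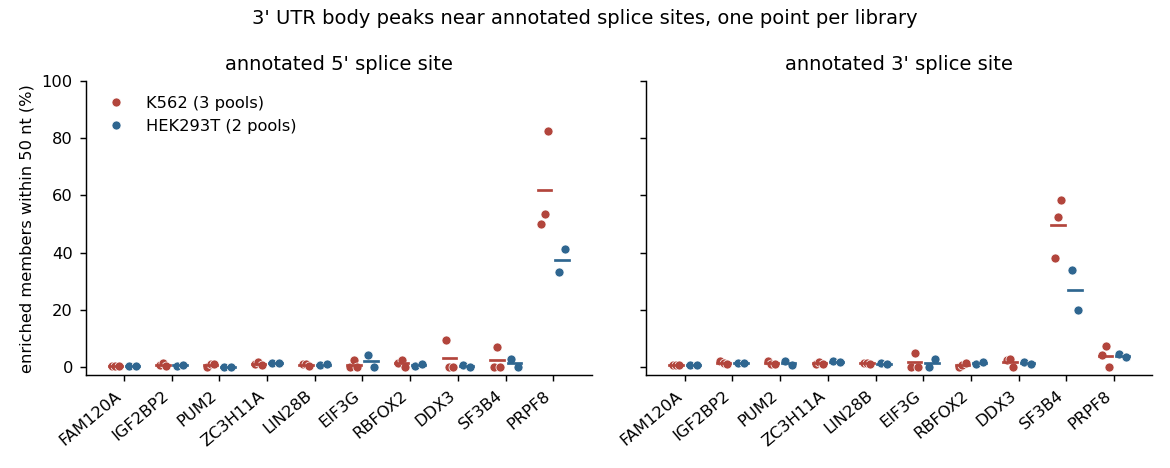
Share of enriched members (percent) within 50 nt of an annotated 5' splice site and of an annotated 3' splice site, by library for the 10 RBPs in K562 and HEK293T cells. PRPF8 libraries lie high for 5' sites, between 33.3 and 82.4%, SF3B4 libraries lie high for 3' sites, between 20 and 58.5%, and the other RBPs lie near 0.

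The start of an intron, GTAAG or GTGAG, lay within 50 nt of 58.3, 39.3 and 52.9% of PRPF8 members in K562 (50.2% ± 9.82, SD, n = 3) and 26.7 and 44.8% in HEK293T cells (35.7% ± 12.8, SD, n = 2). Members of the other 9 RBPs had it in 22.5 and 21.6% (exact permutation, adjusted over 5 elements, p = 0.00167 and p = 0.0375), and windows 200 nt away in 29.6 and 12.7%. The call did not hold over the external background (exact permutation, 24.7%, adjusted p = 0.159, and 23.7%, adjusted p = 0.77), and in HEK293T cells the share was 0% under stricter limits of enrichment. At CIRBP, a cold-inducible RBP gene, PRPF8 had log2 folds of 3.83 and 3.14 with 136 and 117 reads in HEK293T cells, and 8 other RBPs had a peak there. At PRPF4B, a splicing kinase gene, it had 3.41, 5.46 and 3.96 with 12, 41 and 63 reads in K562 cells, and PRPF4B held 1, 2 and 4 PRPF8 members. TARDBP, which encodes TDP-43, had 1, 2 and 1, and in HEK293T cells SMIM39 had 2 and 1 and HNRNPA1 1 and 1.

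The genes with the most SF3B4 members were CIRBP, CREBZF, LUC7L3 and HNRNPA2B1. CIRBP held 2, 5 and 1 SF3B4 members in K562 and 2 and 3 in HEK293T cells, LUC7L3, a U1-associated protein gene, 1, 3 and 2 in K562, and HNRNPA2B1 3 and 3 in HEK293T cells. CREBZF, a leucine zipper gene, had 2, 2 and 3, and 5 and 2. The LUC7L3 member had log2 folds of 5.21, 4.21 and 5.02 with 11, 16 and 14 reads, and the CREBZF member 4.96 and 3.77 with 12 and 17 reads. No other RBP of the pools had a peak at either. The 5 letters beside SF3B4 members that differed most from the surroundings were TTTTC in K562 (51.3% against 26.0% in windows 200 nt away) and TTTCT in HEK293T cells (49.8% against 23.4%).

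EIF3G, DDX3 and SLBP left few enriched members. EIF3G had 72 of 577 enriched in K562 (12.5%, against 32.3% of all its peaks) and 61 of 990 in HEK293T cells (6.16%, against 20.1%). DDX3 had 131 of 3492 (3.75%, against 21.2%) and 225 of 7631 (2.95%, against 12.6%). Both were thus called less often in 3' UTR bodies than over all their peaks in each line. KIAA1328 held 2 EIF3G members in each of the 5 pools, and no other gene had one in every pool of a line. In each line the 2 recurrent members were touching peaks, so they made up 1 stretch. For DDX3 HIF1AN, the hydroxylase that inhibits HIF, had 0, 2 and 2 members in K562 and 2 and 2 in HEK293T cells, and ADCY1 had 2 and 2 in HEK293T cells. Of 42 enriched DDX3 members of the first K562 pool 0 recurred in all 3 pools, against 16.2% of all its enriched peaks. In HEK293T cells 5 of 122 recurred in both pools (4.10%, against 23.6%).

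SLBP binds the stem-loop that ends the mRNAs of replication-dependent histones, whose 3' UTRs are too short to hold a member. It had 143 of 318 members enriched over the external background (45.0%, against 55.3% of all its peaks). In the second SLBP library the limits sorted little, because all 79 of its members passed. H2AX, a histone gene whose mRNA is made both with a stem-loop and with a poly(A) tail, held the most, with 5 and 3. Its highest member had log2 folds of 11.02 and 11.70 with 220 and 83 reads, 76 nt after the stop codon.

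The first 5 RBPs by share came in the same order in both lines, while single sites often differed. Over the 10 RBPs the share of enriched peaks in 3' UTR bodies was 0.31 percentage points higher in HEK293T than in K562 cells, higher in 7 of 10 (exact sign-flip permutation over RBPs, two-sided, p = 0.756), and the sign of so small a difference turned under other settings. The difference was largest for LIN28B, at 6.29 points. Of the 3022 FAM120A members that recurred in K562, 1947 touched a recurrent HEK293T member (64.4%), and 2304 of 9087 the other way (25.4%). For LIN28B 185 of 260 (71.2%) and 200 of 559 (35.8%) did, for RBFOX2 15 of 26 (57.7%) and 19 of 77 (24.7%), and for IGF2BP2 34 of 157 (21.7%) and 35 of 172 (20.3%). None of 6 and 15 PUM2 members did. The same overlap was not counted over all recurrent enriched peaks of these RBPs. These shares therefore do not set 3' UTR bodies apart from other regions. HEK293T pools were deeper than K562 pools by summed reads, and the part of depth in these shares was not tested.

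Position inside the 3' UTR separated the RBPs little. With 0 at the stop codon and 1 at the end of the transcript, the median enriched member lay at 0.30 to 0.46 in K562 and 0.25 to 0.47 in HEK293T cells, as means over pools. The lowest were PUM2 in K562 cells at 0.30 (exact permutation p = 0.02, adjusted p = 0.2) and PRPF8 in HEK293T cells at 0.25 (exact permutation p = 0.02, adjusted p = 0.2), and no RBP passed the adjusted threshold in either line.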

How the data were processed

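Reads of ABC libraries had been trimmed with cutadapt 2.8, mapped to GRCh38 with STAR 2.7.6, freed of duplicates by their molecular identifiers and called as CLIPper peaks by the authors, per library. Per the file headers and names, the deposited merged peaks give log2 fold and −log10 P over an external background, and 10plex libraries also a p-value column or a chi-squared value against the complement control (CC). K562 replicates 1 and 2 and HEK293T pools gave the CC result as chi-squared without a sign and without peaks in repeats, and K562 replicate 3 as log2 fold and −log10 P with repeats. Reads per peak were recovered from the ratios behind the log2 folds (equal to the reads in the peak names for 96.9 to 99.6% of peaks in 22 libraries), and CC reads were solved from the chi-squared, whole in 48.0 to 100.0% of enriched peaks (median 87.4%). In data simulated from whole CC reads of K562 replicate 3, the same formula returned at least 99.67% of them at P below 0.001. Peaks without whole CC reads were left out of the simulation, so it does not measure recovery in the deposited lists. Where CC reads were not whole or a peak held over 50 reads, they were taken as at least the reads of the other 9 libraries' peaks.

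Peaks were placed by their centres in GENCODE release 44 canonical transcripts with python 3.11.15, pandas 2.3.3, numpy 2.4.6 and pysam 0.24.0. Shares were compared by exact two-sided permutation of RBP labels within pools (scipy 1.17.1), adjusted by Benjamini-Hochberg. On simulated data this test passed 5.4 and 4.2% of null cases with 3 and 2 pools and 100.0 and 99.7% of shifts of 4 SD. Elements were searched on the RNA strand only, within 50 nt of a peak. The pool was a block because the RBPs of a pool come from 1 lysate and share their CC. Named sites were, per RBP and line, the member enriched in every replicate with the highest mean fold and at least 10 reads, for RBFOX2 and PUM2 also the 3 with the most reads and the element, and named genes the 3 with the most enriched members and up to 4 per list. The members and lists were chosen with earlier results of these data known. Alternatives covered limits, background, window, repeats, adapter-like sites, reads, block and single replicates. Some genes and sites that meet these rules are not reported here.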

Additional observations from a re-analysis of the deposited data

Results flagged for a closer look

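For 2 of 25 comparisons between the lines, every replicate of an RBP lay on one side of the other 9 RBPs in K562 cells and on the opposite side in HEK293T cells. Both concern the relative position of enriched members in the 3' UTR, as the RBP minus the mean of the other 9. For IGF2BP2 the difference was -0.0348 of the 3' UTR length in K562 and 0.022 in HEK293T cells. For PUM2 it was -0.102 in K562 and 0.0257 in HEK293T cells, with a median of 3 to 4 reads per enriched member. The difference between the lines was not tested, and the number of such cases to expect without a difference was not worked out.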

How the results depend on the processing

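Over 52 results, 501 alternative values kept their side of the threshold and, where called, their direction, 15 lost the call, 1 gained it and 1 called value turned. Values that passed no test could change sign. With 1 K562 replicate left out at a time the FAM120A share was 90.2 to 91.0%, where 2 pools allow no adjusted p below 0.1. In HEK293T cells single pools gave 62.6 to 73.7% for GCATG, 36.3 to 42.9% for TGTANATA, 64.2 to 68.8% for GGAG and 26.7 to 44.8% for GTAAG or GTGAG, and 1 pool allows no p below 0.1. In K562 cells GGAG in LIN28B members was 63.9 to 65.7%, and the call was lost without replicate 2 (65.03%, exact permutation, adjusted p = 0.0625). Under the stricter limits of P and fold GGAG in HEK293T cells was 66.7% (exact permutation, adjusted p = 0.1), and GTAAG or GTGAG in PRPF8 members was 0.0% in HEK293T cells, below the other RBPs. Over the external background GTAAG or GTGAG was 24.7% in K562 and 23.7% in HEK293T cells, and the relative position of PRPF8 members in K562 cells, 0.31, passed (exact permutation, adjusted p = 0.04). The causes were not tested.

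The external background also raised low shares in K562 cells, to 8.73% for DDX3, 7.55% for RBFOX2, 4.53% for EIF3G, 2.74% for SF3B4 and 1.21% for PRPF8. The difference between lines was -5.08 percentage points over the external background, -1.98 over all merged peaks, -0.0419 without repeats, -0.134 without K562 replicate 1 and -0.06 without HEK293T replicate 2. Without the replicate block the FAM120A share had p = 0.000246 (adjusted p = 0.00246) in K562 and p = 0.00526 (adjusted p = 0.0526) in HEK293T cells, both by permutation, and no call changed. One test for all pools, whole CC reads only, touching peaks counted once, mRNA exons only and repeats out of replicate 3 were chosen after seeing the data. Leaving out soft-masked bases was not run because the genome used carries no soft-masking. PUM2 and EIF3G, with 3 to 4 reads per enriched member, are the shallowest.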
